A study of Mus musculus with 12 samples.

Results

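Alx1, Alx4, Prrx1 and Prrx2 are homeobox genes of the mesenchyme that builds the face and the limbs, and their RNA was measured in whole mouse embryos that carry the whirligig allele of Chd7. The genes were chosen by name, and every array probe whose transcript accession belongs to any of them was taken. This gave 5 probes for the 4 genes, out of 39429 probes for 32496 genes or identifiers on the array. All 4 genes were among the 22563 that were bright enough to test.

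The series holds 12 one-colour arrays, 4 for each genotype: Chd7Whi/Whi, Chd7Whi/+ and Chd7+/+. All embryos were female, at embryonic day 9.5 and of the mixed C3HeB/FeJ background, came from crosses of heterozygous whirligig parents, and were freed of the yolk sac before RNA was extracted from the embryo. The labels describe 4 biological replicates per genotype and name the homozygotes a Chd7 knockout. Chd7 is a chromatin remodeller, and mutations of the human gene cause CHARGE syndrome, in which the face, ears, eyes, heart and other organs are affected. The allele is inherited and so present throughout the embryo, and is not limited to a tissue.

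All 4 genes encode homeodomain proteins of the paired type, which bind DNA at sites built around the letters TAAT, often as pairs of molecules on a palindromic site. In mouse embryos the Alx genes are used mainly by frontonasal mesenchyme, much of it derived from the neural crest, while Prrx1 and Prrx2 are used more widely, in the mesenchyme of the face, the pharyngeal arches and the limb buds. Mice that lack Alx1 have severe defects of the skull vault and brain closure, mice that lack Alx4 have extra digits, and mice that lack Prrx1 have defects of the facial skeleton and limbs that become worse when Prrx2 is missing too.

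RefSeq promoter sequences were at hand for 2 of the 4 genes, Prrx1 and Prrx2, and are shown because these close relatives differed in how far their RNA was lower in homozygotes. Each runs from 250 bases before to 50 bases after the start of the gene in build GRCm38.p6, 5′ to 3′ on the strand of the gene. The Prrx1 sequence is chr1:163313601-163313900 on the minus strand and the Prrx2 sequence is chr2:30845117-30845416 on the plus strand. Capitals mark TAATTA, the core of a homeodomain site.
Prrx1: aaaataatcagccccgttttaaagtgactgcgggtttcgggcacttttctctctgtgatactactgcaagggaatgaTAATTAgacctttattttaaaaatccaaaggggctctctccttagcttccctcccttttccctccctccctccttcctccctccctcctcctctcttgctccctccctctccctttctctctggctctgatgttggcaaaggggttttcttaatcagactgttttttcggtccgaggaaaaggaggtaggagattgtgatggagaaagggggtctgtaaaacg
Prrx2: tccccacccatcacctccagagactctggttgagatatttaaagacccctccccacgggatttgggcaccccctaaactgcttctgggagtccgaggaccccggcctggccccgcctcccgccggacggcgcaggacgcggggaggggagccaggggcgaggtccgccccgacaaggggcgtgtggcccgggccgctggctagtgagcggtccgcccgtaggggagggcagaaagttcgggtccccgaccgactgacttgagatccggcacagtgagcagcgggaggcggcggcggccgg
The motifs TAATTA, TAATNNNATTA (the palindromic site of paired-type dimers) and CANNTG (the E-box, bound by Twist proteins) were searched; each reads the same on both strands, and no matches overlapped. The Prrx1 promoter held 1 TAATTA, 173 bases before the start, and such a match is present in 5.29% of the 32851 promoters of the table. Neither promoter held TAATNNNATTA, present in 0.487% of promoters, or CANNTG, present in 72.3%. The sequences also differ in composition: the Prrx2 promoter is 70.3% G and C with 28 CpG sites, the Prrx1 promoter is 47.7% with 6, and the median of all promoters is 52.7%.

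Signals are given as log2 of the processed spot signal minus the 75th percentile of the same array, called the scaled log2 signal below, so 0 is the level of a fairly bright probe and each unit is a doubling. Per array, 69.1% to 75.7% of probes were well above background and no spot was saturated, and pairs of arrays correlated at 0.986 to 0.995 when of the same genotype and at 0.983 to 0.994 when not. Replicate numbers follow the order of deposit and only name an array. Markers of 11 cell types, from heart muscle to neural tube were all above background on at least 1 array. One embryo stood apart in heart muscle markers, whose summed signal was 8.89 times the 75th percentile in heterozygous replicate 1, against 126 to 181 in the other heterozygotes. The comparisons of heterozygotes with the other genotypes are therefore also given without it for the 4 genes. Among homozygotes, replicates 1 and 2 stood above replicates 3 and 4 in summed markers of visceral endoderm and liver (72 and 35.1, but 5.58 and 9.93). The same held for surface ectoderm and epithelium (53.8 and 47.3, but 30.4 and 27.9). The latter sum is mostly the keratin gene Krt18, at 4.32 to 5.39 in homozygotes, against 1.08 to 2.35 for Krt8 (scaled log2 signal). The gene table used here tied no probe to Chd7, so the level of the mutated gene was not checked.

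Alx1 and Prrx1 were lower in homozygous than in wild-type embryos, by 4.37-fold and 3.54-fold, while the values of Alx4 and Prrx2 differed by 1.02-fold and 1.22-fold and did not pass the test. Passing means a Benjamini-Hochberg adjusted p of 0.05 or less over all genes in a limma fit. Thus 2 of the 4 genes passed, both lower, where 1.35% of all tested genes passed and 0.864% passed as lower. By the same rule no gene of the 4 passed between heterozygotes and wild type, where 0.00886% of genes passed, or between homozygotes and heterozygotes, where 0.0133% passed. These are levels in RNA of the whole embryo, in which fewer mesenchymal cells and less RNA per cell cannot be told apart.

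**Figure D1:**
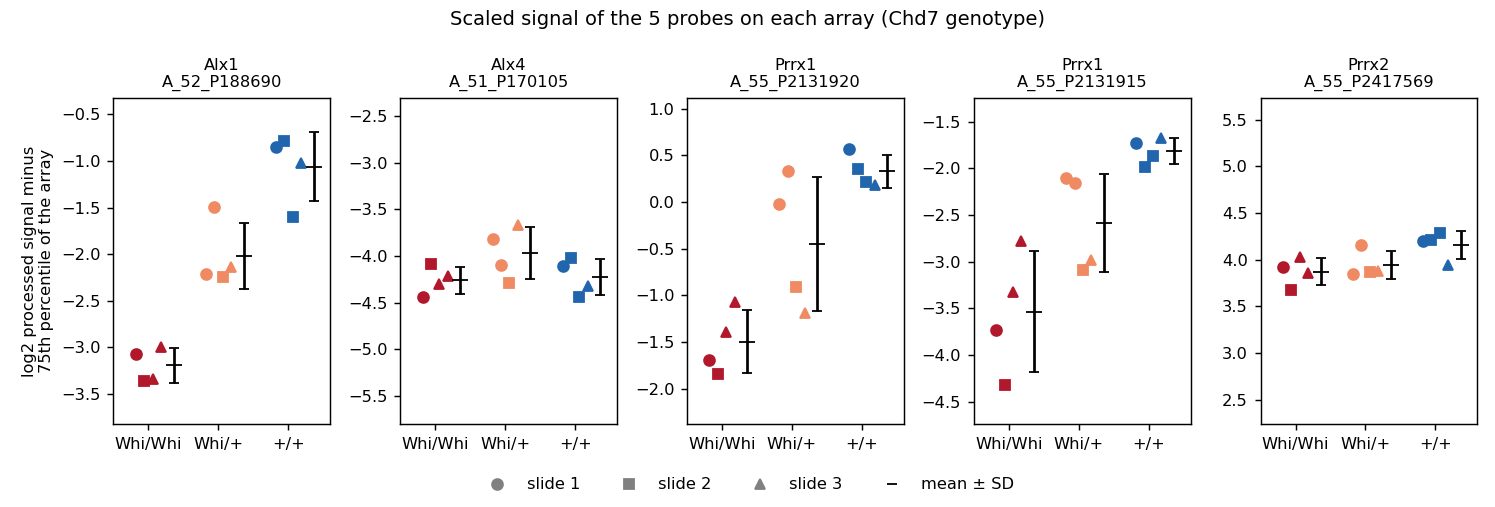
Scaled log2 signal (vertical axis) of each of the 5 probes on every array, by Chd7 genotype, with the marker shape giving the slide and bars the mean ± SD of 4 arrays. The vertical axes have equal length in log2 units but start at different levels. Alx1 and both Prrx1 probes lie lower in all 4 homozygotes than in any wild-type embryo, and Alx4 and Prrx2 overlap between genotypes.

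Alx1, an aristaless-like factor of frontonasal and periocular mesenchyme, was measured by the probe A_52_P188690 for transcript NM_172553. Its scaled log2 signal was -3.07, -3.36, -3.34 and -2.99 in the 4 homozygotes, -2.21, -1.49, -2.24 and -2.14 in the 4 heterozygotes, and -0.85, -0.79, -1.60 and -1.02 in the 4 wild-type embryos. All homozygotes lay below all heterozygotes, and the heterozygotes lay below the wild-type embryos except that heterozygous replicate 2 was above wild-type replicate 3. On the linear scale, before scaling, the processed signal was 117 to 205 in homozygotes, 248 to 469 in heterozygotes and 460 to 823 in wild type, all well above background.

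The mean scaled log2 signal of Alx1 was -3.19 ± 0.19 in homozygotes, -2.02 ± 0.35 in heterozygotes and -1.06 ± 0.37 in wild type (SD, n = 4 each). Homozygotes were lower than wild type by a log2 fold change of -2.13 ± 0.21 (SE), with a 95% interval of -2.58 to -1.68 and an adjusted p of 0.000602 in the limma fit. It ranked 11 by p and 24 from the lowest fold change among the 22563 genes. The groups did not overlap, which was true of 14.1% of tested genes and, with homozygotes lower, of 8.22%.

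In heterozygotes the log2 fold change of Alx1 against wild type was -0.96 ± 0.21 (95% interval -1.41 to -0.51), with an unadjusted p of 0.000577 and an adjusted p of 0.232 in limma. For homozygotes against heterozygotes it was -1.17 ± 0.21, with an unadjusted p of 0.000109 and an adjusted p of 0.129 in limma. Neither step passed over all genes. The homozygous and heterozygous arrays did not overlap, as in 2.98% of tested genes, or 1.65% with homozygotes lower. The heterozygotes lay 0.11 ± 0.18 above the midpoint of the other genotypes, with a 95% interval of -0.28 to 0.49 that includes 0, and 0% of all genes differed from their midpoint past the threshold, although 7.82% had an unadjusted p of 0.05 or less in limma. Without heterozygous replicate 1, the embryo with low heart markers, heterozygotes differed from wild type by -0.90 (adjusted p = 0.286 in limma) and homozygotes from heterozygotes by -1.23 (adjusted p = 0.243 in limma).

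Prrx1, a factor of limb bud and craniofacial mesenchyme, has 2 probes for different transcripts of the gene. The brighter, A_55_P2131920 for NM_175686, had scaled log2 signals of -1.69, -1.84, -1.39 and -1.07 in homozygotes, -0.02, 0.33, -0.91 and -1.19 in heterozygotes, and 0.57, 0.35, 0.21 and 0.18 in wild type. Every homozygote was below every wild-type embryo, as in 8.22% of all tested genes. The heterozygotes split: replicates 1 and 2 were near wild type and replicates 3 and 4 near the homozygotes, with replicate 4 below homozygous replicate 4.

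The means were -1.50 ± 0.34 in homozygotes, -0.45 ± 0.72 in heterozygotes and 0.33 ± 0.18 in wild type (SD, n = 4 each). Homozygotes were lower than wild type by -1.82 ± 0.30 on the log2 scale (95% interval -2.47 to -1.17), with an adjusted p of 0.0129 in limma, rank 99 by p and 36 from the lowest fold change. Heterozygotes differed from wild type by -0.77 ± 0.30 (95% interval -1.43 to -0.12, adjusted p = 0.273 in limma) and homozygotes from heterozygotes by -1.05 ± 0.30 (adjusted p = 0.543 in limma). Neither of these passed, and their arrays overlapped. Between heterozygotes and wild type, 0 of the 4 genes had arrays that did not overlap, where 6.67% of all tested genes did not overlap and 2.18% lay lower in heterozygotes. The distance of the heterozygotes from the midpoint was 0.14 ± 0.26 (95% interval -0.43 to 0.70). Without heterozygous replicate 1, heterozygotes differed from wild type by -0.92 (adjusted p = 0.311 in limma), homozygotes from heterozygotes by -0.91 (adjusted p = 0.777 in limma), and the distance from the midpoint was -0.0047.

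The second Prrx1 probe, A_55_P2131915 for NM_001025570, gave -3.73, -4.32, -3.33 and -2.78 in homozygotes, -2.10, -2.16, -3.09 and -2.98 in heterozygotes, and -1.73, -1.99, -1.87 and -1.67 in wild type. The order of groups was as on the brighter probe, with no overlap between homozygotes and wild type and the same pair of heterozygotes, replicates 3 and 4, on the low side. In a limma fit of all 27544 probes bright enough to test, homozygotes were lower than wild type by -1.72 ± 0.31 (adjusted p = 0.0208), and the brighter probe had an adjusted p of 0.0136 there. Heterozygotes differed from wild type by -0.77 ± 0.31 (adjusted p = 0.295) and homozygotes from heterozygotes by -0.95 ± 0.31 (adjusted p = 0.72) in that fit. The probes share the same RNA samples, so this is a repeat of the measurement and not of the embryos.

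The split of the Prrx1 heterozygotes ran along the slides. Replicates 1 and 2 were hybridised on slide 1, replicate 3 on slide 2 and replicate 4 on slide 3. Within slides 1, 2 and 3 the brighter probe differed between heterozygotes and wild type by -0.42, -1.19 and -1.37, and between homozygotes and heterozygotes by -1.84, -0.93 and -0.04. Replicates 3 and 4 also share a number in their sample titles, 53, whose meaning the labels do not give. Summed marker signals of many cell types moved with the split as well. Those of neurons were 3.92 and 4.05 in heterozygous replicates 1 and 2 but 2.53 and 2.4 in replicates 3 and 4. Those of endothelium were 4.35 and 3.99 but 5.03 and 6.72. Blood and neural tube sums were also higher in replicates 1 and 2. Sums of surface ectoderm and epithelium, heart muscle and skeletal muscle were lower there. Those of neural crest, somite, macrophage, and visceral endoderm and liver did not separate these pairs. The part of slide, title number or these cell types in the split was not tested.

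**Figure D2:**
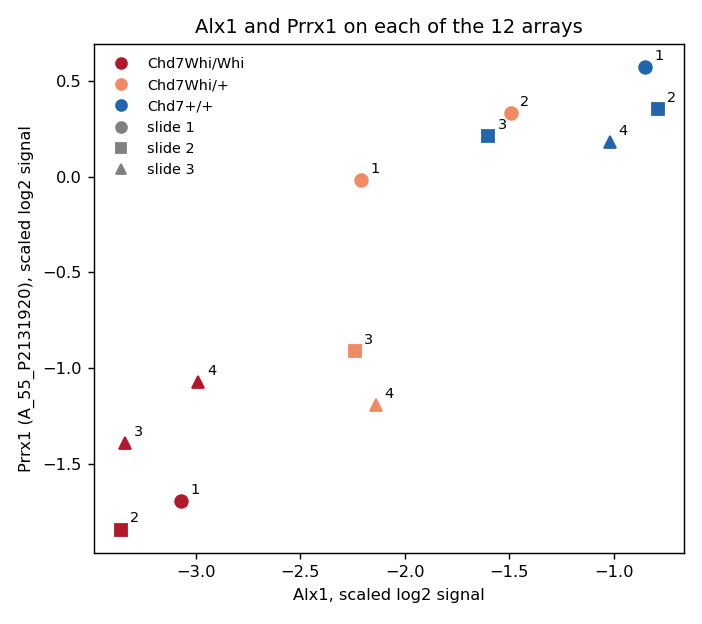
Scaled log2 signal of Alx1 (horizontal axis) and of the brighter Prrx1 probe (vertical axis) on each of the 12 arrays, coloured by Chd7 genotype, shaped by slide and numbered by replicate. Homozygotes occupy the low corner and wild-type embryos the high corner. At Alx1 signals of -2.24 to -2.14, the Prrx1 signals of 3 heterozygotes range from -1.19 to -0.02.

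The lower signal of Alx1 and Prrx1 in homozygotes was present within each slide. Within slides 1, 2 and 3, Alx1 differed between homozygotes and wild type by -2.22, -2.17 and -2.15, and the brighter Prrx1 probe by -2.26, -2.12 and -1.41. With slide as a block, the adjusted p in limma was 0.00149 for Alx1 and 0.0149 for Prrx1. Positions within a slide were not spread evenly over genotypes. Heterozygotes lay at positions 2 and 4 and shared none with wild type, so these genotypes cannot be told apart from position. Of the wild-type arrays, 3 of the 4 lay at position 1, which held no mutant, and wild type and homozygotes met only at position 3. There Alx1 differed by -1.61 and Prrx1 by -1.75. As a block, position ended both calls (adjusted p = 0.177 for Alx1 and 0.895 for Prrx1 in limma) and left 20 genes past the threshold in place of 305. The title number as a block gave -2.27 for Alx1 and -1.78 for Prrx1 and also ended both calls (adjusted p = 0.0552 and 0.162 in limma), with 19 genes left. The Prrx1 call was also lost without wild-type replicate 1 (-1.74, adjusted p = 0.0523 in limma).

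Alx4, an aristaless-like factor of frontonasal and anterior limb mesenchyme, was measured by A_51_P170105 for NM_007442. Its scaled log2 signal was -4.44, -4.09, -4.30 and -4.21 in homozygotes, -3.82, -4.10, -4.29 and -3.67 in heterozygotes, and -4.11, -4.02, -4.44 and -4.32 in wild type. The genotypes overlapped, and the spread within each was larger than the difference between homozygotes and wild type. The probe was dim, with a processed signal of 60.1 to 95.3, yet 12 of 12 arrays had it well above background, where the dimmest such probe had 10.2 to 16.1.

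The mean scaled log2 signal of Alx4 was -4.26 ± 0.15 in homozygotes, -3.97 ± 0.28 in heterozygotes and -4.23 ± 0.19 in wild type (SD, n = 4 each). The log2 fold change of homozygotes against wild type was -0.03 ± 0.15, with a 95% interval of -0.36 to 0.29 and an adjusted p of 0.93 in limma. That interval does not reach the size of the Alx1 change. Heterozygotes differed from wild type by 0.26 ± 0.15 (95% interval -0.07 to 0.58, adjusted p = 0.4 in limma), and homozygotes from heterozygotes by -0.29 ± 0.15 (95% interval -0.62 to 0.03, adjusted p = 0.869 in limma). With normexp background correction, homozygotes differed from wild type by -0.28 (adjusted p = 0.686 in limma). The difference of heterozygotes from wild type turned to -0.05 in that setting. Without heterozygous replicate 1 it was 0.21 (adjusted p = 0.548 in limma), and homozygotes differed from heterozygotes by -0.24 (adjusted p = 0.93 in limma).

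Prrx2, the close relative of Prrx1, was measured by A_55_P2417569 for NM_009116. Its scaled log2 signal was 3.92, 3.68, 4.03 and 3.86 in homozygotes, 3.85, 4.16, 3.87 and 3.88 in heterozygotes, and 4.20, 4.21, 4.29 and 3.94 in wild type. In wild type, 3 embryos lay above all others, and replicate 4 was within the range of both mutant genotypes. The probe was bright, at 16100 to 27300, and not saturated.

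The mean scaled log2 signal of Prrx2 was 3.87 ± 0.14 in homozygotes, 3.94 ± 0.15 in heterozygotes and 4.16 ± 0.15 in wild type (SD, n = 4 each). Homozygotes differed from wild type by -0.29 ± 0.11 on the log2 scale (95% interval -0.54 to -0.04), with an unadjusted p of 0.0259, a level reached by 17% of all tested genes, and an adjusted p of 0.24 in limma. Heterozygotes differed from wild type by -0.22 ± 0.11 (adjusted p = 0.363) and homozygotes from heterozygotes by -0.07 ± 0.11 (adjusted p = 0.99) in the same fit. Within slides 1, 2 and 3 the difference between homozygotes and wild type was -0.27, -0.57 and 0.0007, so slide 3 showed next to none. Without heterozygous replicate 1, heterozygotes differed from wild type by -0.19 (adjusted p = 0.492 in limma) and homozygotes from heterozygotes by -0.10 (adjusted p = 0.966 in limma).

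**Figure D3:**
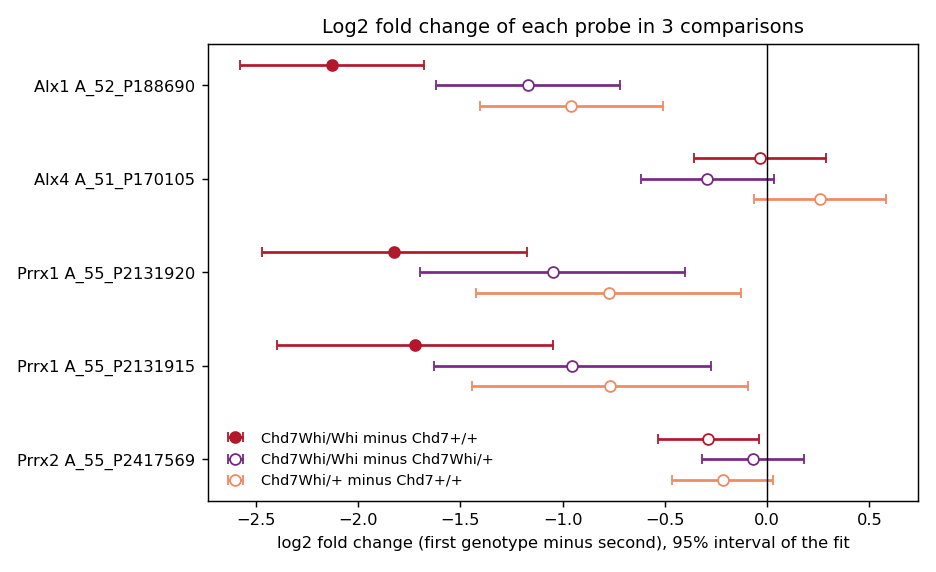
Log2 fold change (horizontal axis) of each of the 5 probes in 3 comparisons, as labelled in the legend, with 95% intervals of the limma fit; filled points had an adjusted p of 0.05 or less. Only Alx1 and the 2 Prrx1 probes in homozygotes against wild type are filled, at -2.13, -1.82 and -1.72.

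The genes thus differed in the size of their response, and this was tested directly from the difference of a pair of genes within each array, which does not depend on the scaling. Over the 6 pairs, the difference between homozygotes and wild type was compared in a two-sided exact permutation test with 70 assignments, whose smallest possible p is 0.0286. The Alx1 log2 fold change was lower than that of Alx4 by -2.09 ± 0.18 and lower than that of Prrx2 by -1.84 ± 0.25 (SE; exact permutation p = 0.0286 and adjusted p = 0.0429 over the 6 pairs, for each). The Prrx1 log2 fold change was lower than that of Prrx2 by -1.54 ± 0.18, and the Alx4 log2 fold change was higher than that of Prrx1 by 1.79 ± 0.20, both with the same exact permutation p of 0.0286 and adjusted p of 0.0429. These 4 pairs each join a gene that passed with a gene that did not, and within each the array values of homozygotes and wild type separated completely.

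For the other 2 pairs no difference was shown. Alx1 and Prrx1 differed by -0.31 ± 0.21 in their log2 fold change (exact permutation p = 0.2, adjusted p = 0.24), and Alx4 and Prrx2 by 0.25 ± 0.18 (exact permutation p = 0.286, adjusted p = 0.286). The pairs share genes and embryos, so these tests are not independent of each other. Within both subfamilies, one gene was lower and its relative was not called: Alx1 beside Alx4, and Prrx1 beside Prrx2.

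Other genes of the same tissues and family were followed through 4 lists, compared between homozygotes and wild type, where the median log2 fold change of all genes was 0.02 and 46.5% had a value below 0. In this comparison 1.35% of all tested genes passed, and 0.864% passed as lower. Of 38 tested facial and pharyngeal arch mesenchyme factors (39 listed), 1 passed, lower, and the median was -0.20, with 26 values below 0. Of 28 tested early limb bud genes (32 listed), 4 passed, all lower, with a median of -0.28 and 18 values below 0. Of 30 mesenchyme matrix and receptor genes, 4 passed, all lower, with a median of -0.10, 18 values below 0 and 12 above. Of 20 tested other paired-type homeobox genes (30 listed), 0 passed in limma and the median was 0.10, with 8 values below 0. In heterozygotes against wild type, and in homozygotes against heterozygotes, 0 genes of the 4 lists passed in limma, as for nearly all genes: 0.00886% and 0.0133% of them passed. At an unadjusted p of 0.05 or less, 15.4% and 6% of all genes did.

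Among the arch and facial factors the gene that passed was Twist1, a basic helix-loop-helix factor of cranial and limb mesenchyme, which is also on the limb list. Its scaled log2 signal was 0.48 to 0.87 in homozygotes, 1.10 to 1.50 in heterozygotes and 1.36 to 1.71 in wild type, a log2 fold change of -0.93 ± 0.12 for homozygotes against wild type (adjusted p = 0.00393 in limma). All homozygotes lay below all embryos of the other genotypes. Of all tested genes, 8.22% did so against wild type and 1.65% against heterozygotes. For homozygotes against heterozygotes Twist1 gave -0.61 ± 0.12 (adjusted p = 0.226 in limma).

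Six2, a factor of frontonasal and arch mesenchyme, had a log2 fold change of -0.05 ± 0.12 in homozygotes against wild type (adjusted p = 0.863 in limma), and the sign turned under normexp (0.005), array weights (0.0045) and the blocks for position and title number. Its other probe had the opposite sign, at 0.29, and did not pass either. Of the paired-type genes, Hesx1, of the forebrain and pituitary, had 0.84 ± 0.39 (adjusted p = 0.303 in limma), with overlapping groups of -3.53 to -2.29 in homozygotes and -4.22 to -2.79 in wild type.

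Of the early limb bud genes, Fgf10, the mesenchymal growth factor that starts limb outgrowth, was lower in homozygotes. Its scaled log2 signal was -4.19 to -3.63 in homozygotes, -3.53 to -3.01 in heterozygotes and -2.74 to -2.38 in wild type, so no genotype overlapped with another. Of all tested genes, 8.22% lay lower without overlap in homozygotes than in wild type. The share was 2.18% for heterozygotes against wild type and 1.65% for homozygotes against heterozygotes. The share for all these pairs at once was not computed. The log2 fold change was -1.35 ± 0.15 for homozygotes against wild type (adjusted p = 0.00128 in limma), -0.67 ± 0.15 for heterozygotes against wild type (adjusted p = 0.232) and -0.68 ± 0.15 for homozygotes against heterozygotes (adjusted p = 0.294). Rspo2, a secreted enhancer of Wnt signalling in limb and face, was lower by -1.70 ± 0.34 (adjusted p = 0.0353), and Lhx9, a LIM homeobox factor of limb mesenchyme, by -0.97 ± 0.19 (adjusted p = 0.0351 in limma). The Lhx9 probe was dimmer than that of Alx4, at -6.39 to -5.95 in homozygotes and -5.58 to -4.60 in wild type, yet well above background on all arrays. Tbx5, which marks the forelimb field and the heart, did not pass, at 0.45 ± 0.24 (adjusted p = 0.362 in limma).

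The mesenchyme matrix and receptor genes that passed in homozygotes against wild type were Col3a1, Has2, Vcan and Cdh11. Col3a1, a fibrillar collagen, was lower by -1.54 ± 0.22 (adjusted p = 0.00632), and the hyaluronan synthase gene Has2 by -0.92 ± 0.13 (adjusted p = 0.00604 in limma). Vcan, a proteoglycan that binds hyaluronan, was lower by -0.75 ± 0.10 (adjusted p = 0.00407), but its other 2 probes gave -0.24 and -0.45 and did not pass. Cdh11, a cadherin of mesenchymal cells, was lower by -0.54 ± 0.10 (adjusted p = 0.0188 in limma), and its other probe gave -0.34 and did not pass. Pdgfra, a growth factor receptor of mesenchyme at large, did not pass (-0.20 ± 0.13, adjusted p = 0.44 in limma). The highest value of the list was that of Thy1, a surface glycoprotein gene, at 0.90 ± 0.26 (adjusted p = 0.132 in limma), and the collagen genes Col6a1, Col5a1 and Col1a1 had 0.47, 0.38 and 0.23 without passing. These 5 genes were named after their values were seen.

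**Figure D4:**
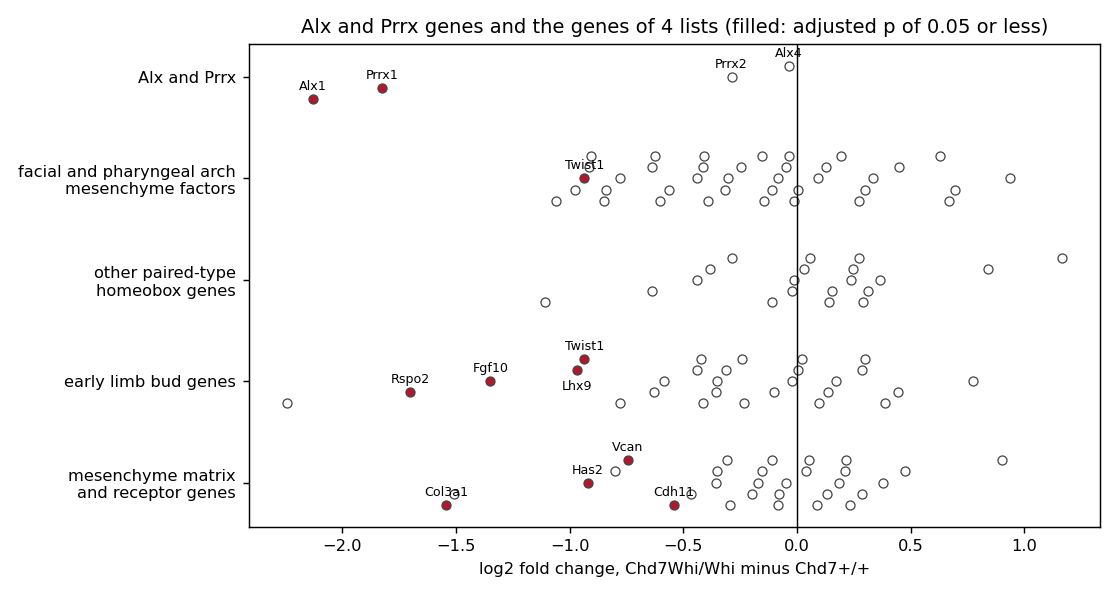
Log2 fold change of Chd7Whi/Whi minus Chd7+/+ (horizontal axis) for Alx1, Alx4, Prrx1 and Prrx2 and for the tested genes of 4 lists, 1 point per gene; filled points had an adjusted p of 0.05 or less, and the vertical scatter within a row has no meaning. Alx1 at -2.13 lies lower than every list gene but 1, and all filled points are left of 0.

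Position on the slide as a block ended the call of each of these 8 list genes, with adjusted p values from 0.437 for Fgf10 upward, and so did the title number, from 0.0597 for Fgf10 to 0.24 for Cdh11. The Lhx9 call was also lost with normexp (-0.58, adjusted p = 0.458), without a filter on dim probes, with only the genotypes compared and with the trend and robust variance, and the Rspo2 call without that filter (adjusted p = 0.0714). Leaving out any of homozygous replicates 1 to 3 or wild-type replicate 1 ended the calls of Rspo2, Lhx9 and Cdh11; so did wild-type replicates 2 and 3 for Rspo2 and Lhx9, wild-type replicate 4 for Rspo2 and Cdh11, and homozygous replicate 4 for Lhx9, with adjusted p values up to 0.116 for Rspo2, 0.102 for Lhx9 and 0.0726 for Cdh11 in limma. Cdh11 was lost with normexp (adjusted p = 0.106) and with median scaling (adjusted p = 0.0509) too. The calls of Twist1, Fgf10, Vcan, Has2 and Col3a1 held without each of the 12 arrays.

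Markers of 11 other cell types were also compared between homozygotes and wild type, where 1.35% of all tested genes passed. All 6 somite markers had lower values in homozygotes than in wild type and 1 passed, and their summed signal was 9.07 to 9.46 in homozygotes, 9.78 to 15.5 in heterozygotes and 11.2 to 13.4 in wild type, in units of the 75th percentile. All 7 neuron markers had lower values and 1 passed, with sums of 2.29 to 3.68 in homozygotes, 2.4 to 4.05 in heterozygotes and 3.61 to 5.15 in wild type. Of 8 neural crest markers, 2 passed as higher, with sums of 5.6 to 7.36 in homozygotes, 5.35 to 6.22 in heterozygotes and 5.11 to 5.56 in wild type. Of 4 tested skeletal muscle markers, 2 passed as lower in limma, Myog (-3.48, adjusted p = 0.00167) and Tnnc2 (-1.80, adjusted p = 0.0036). The other 2, Actc1 and Myod1, had higher values, 0.16 and 0.15, and did not pass. Myog entered the test through wild type, where 4 arrays had it well above background, against 1 homozygous and 2 heterozygous arrays. Its fold change is therefore taken against values near the background. The list's sums overlapped, at 72.8 to 98.7 in homozygotes, 3.59 to 85.5 in heterozygotes and 62.9 to 89.4 in wild type. These sums are mostly Actc1, which is also on the heart muscle list, and say little about Myog and Tnnc2. In homozygotes the scaled log2 signal of Actc1 was 6.18 to 6.62, against -4.14 to -3.54 for Tnnc2. The 3.59 was that of heterozygous replicate 1, the embryo with low heart markers.

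None of the 7 surface ectoderm and epithelium markers passed, but all 7 had higher values. Their sums, mostly Krt18, were 27.9 to 53.8 in homozygotes, 29.1 to 42.8 in heterozygotes and 22 to 33.1 in wild type. Of 8 neural tube markers, 6 had lower values and 0 passed in limma, with sums of 22.3 to 32.2 in homozygotes, 26.9 to 34.6 in heterozygotes and 28.6 to 43.1 in wild type. Of 5 tested macrophage markers, 1 passed as higher, with sums of 0.705 to 0.877 in homozygotes, 0.708 to 0.842 in heterozygotes and 0.574 to 0.774 in wild type. Among markers of blood, endothelium, heart muscle, and visceral endoderm and liver, 0 passed in limma. Values were lower in homozygotes for 6 of 7 blood, 3 of 6 endothelium, 1 of 7 heart muscle and 1 of 6 tested visceral endoderm and liver markers. No marker of these lists was below background on all arrays. The part of such shifts in the Alx1 and Prrx1 differences was not tested.

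The genes most like each of the 4 over the 12 arrays were ranked by Pearson r of the scaled log2 signal among 15269 genes. The points are 12 embryos of 3 genotypes on shared slides, so r is a description and has no p, and r of the deviations from the genotype means is given beside it. Most like Alx1 were Vcan (r = 0.973, deviations 0.743), Vit, a matrix protein gene (0.969, 0.609), Pdgfc, a ligand of the Pdgfra receptor (0.968, 0.784), Lin28b, an RNA-binding developmental timing factor (0.965, 0.604), and Vopp1 (0.962, 0.707). In homozygotes against wild type their log2 fold changes lay between -2.11 for Vit and -0.46 for Vopp1, a direction that the choice by likeness to Alx1 fixes. For Alx1, 81 genes had an r over 0.9.

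Most like Prrx1 were Panx1, a membrane channel gene (r = 0.98, deviations 0.924), Cd34, a surface sialomucin gene (0.971, 0.918), St8sia4, which adds polysialic acid (0.97, 0.892), Tnfaip6, whose product binds hyaluronan (0.97, 0.918), and Lix1 (0.967, 0.899). Being chosen for their likeness to Prrx1 on these arrays, they share its split of heterozygotes and its direction. In homozygotes against wild type their log2 fold changes lay between -1.22 for Tnfaip6 and -0.25 for Panx1. For Prrx1, 78 genes had an r over 0.9.

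**Figure D5:**
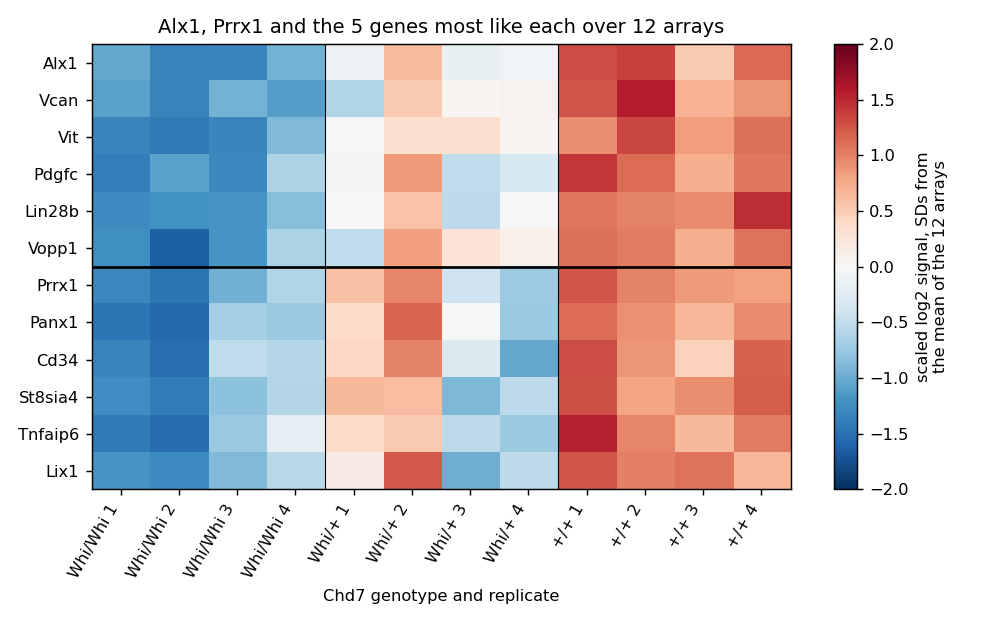
Scaled log2 signal of Alx1, Prrx1 and the 5 genes most like each (rows) on the 12 arrays (columns, by Chd7 genotype and replicate), as SDs from the mean of each gene over the arrays. Homozygotes are below the mean and wild-type embryos above it in every row. In the lower block, heterozygous replicates 1 and 2 are higher than replicates 3 and 4.

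Prrx2 and Alx4 had fewer close matches, 2 and 0 genes with an r over 0.9. Most like Prrx2 were Spn (r = 0.925), Ddx24 (0.915), Nup85 (0.896), Ebf3 (0.872) and Uqcrq (0.86). Most like Alx4 were Tlcd3a (r = 0.899), Abcc8 (0.892), Rhoh (0.857), Maff (0.856) and Steap3 (0.847). In homozygotes against wild type the log2 fold changes of these 10 genes lay between -0.43 for Ebf3 and 0.09 for Steap3.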

How the data were processed

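Total RNA of 12 female embryos at embryonic day 9.5 was hybridised to one-colour (Cy3) Agilent arrays, 4 per genotype, grouped by the genotype in the labels. The intensity values are the deposited processed signals, corrected for background within the array by Agilent Feature Extraction 10.7.3.1, per the file headers. The submitters' processing notes add limma, without a version. The deposited value table held the same intensities, with a largest relative difference of 0 on a linear scale.

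From these, log2 of the signal minus the 75th percentile of the array was computed, leaving out 1377 control spots and 171 to 386 outlier spots per array. Of 39429 probes, 26055 were named by transcript accession through a RefSeq table of GRCm38.p6 (19751 genes) and 13374 were not. The brightest probe by mean stood for a gene and was tested if, in 1 genotype or more, each array had it well above background (22563). All 12 arrays were fitted with limma 3.58.1 in R 4.3.3, with 1 mean per genotype and no covariates. Errors of fold changes are SEs, intervals are 95%, and p values were Benjamini-Hochberg adjusted over all genes, with 0.05 as the threshold. The fit was tested on simulated data. P-values measure the spread between 4 embryos per genotype, and the number of arrays limits the precision.

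The 4 genes, the lists and the tests were chosen with earlier results of these data known. Named were all probes of the 4 genes; of each list and comparison the genes past the threshold (at most 6 by p) or, where none passed, the 2 with the smallest p; Twist1, Six2, Tbx5 and Fgf10 as values; and the 5 genes most like each of the 4. Some genes that this rule names are not reported here. Those named for the comparisons with heterozygotes stand in the closing section. Alternatives were normexp on the median spot signal (offset 50), quantile or median scaling, the value table, 2 other filters, every probe, blocks for slide, position or title number, a fit of 2 genotypes only, trend and robust variance, array weights and each array left out. Promoters are RefSeq's; motif matches are exact. Figures were drawn with matplotlib 3.10.9.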

Additional observations from a re-analysis of the deposited data

Results flagged for a closer look

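In each genotype, a single array far from the other 3 was looked for among the 16 probes the text names most closely, 48 groups of 4 arrays in all, by Dixon's test at its 95% critical value. Chance alone marks about 1 in 20 groups, and 3 of the 48 were marked. Alx1 in heterozygous replicate 2 had a scaled log2 signal of -1.49, against -2.24 to -2.14 in the other heterozygotes, a gap of 0.873 of the range. Prrx2 in the same embryo had 4.16, against 3.85 to 3.88 in the others (0.906 of the range). For both genes this embryo was the heterozygote nearest to the wild-type mean. Tbx5 in homozygous replicate 1 had 0.20, against -0.41 to -0.37 in the others (0.937 of the range).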

How the results depend on the processing

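Alx1 and Prrx1 in homozygotes against wild type kept their direction under all 13 processing alternatives and all 12 left-out arrays. Leaving out arrays moved Alx1 between -2.31 and -2.04 and Prrx1 between -1.97 and -1.71, with the Prrx1 call lost only without wild-type replicate 1 (-1.74, adjusted p = 0.0523 in limma). Position as a block ended both calls (-1.61 for Alx1, -1.75 for Prrx1), as did the title number (-2.27 and -1.78). These blocks leave few arrays of both genotypes to compare, and whether position or title number accounts for part of the differences was not tested.

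Values near 0 changed sign. For homozygotes against wild type, Alx4 was 0.074 with position, 0.0791 with title number, 0.0026 with array weights and -0.11 to 0.0337 with arrays left out. Normexp moved Alx4 furthest, to -0.28, without a change of sign. Six2 was 0.117 with position, 0.0226 with title number, 0.0045 with array weights, 0.005 with normexp, and -0.17 to 0.0179 with arrays left out. Normexp turned Alx4 in heterozygotes against wild type to -0.0472, Prrx2 in homozygotes against heterozygotes to 0.0265, and the difference of Alx4 and Prrx2 to -0.048. Prrx2 against the midpoint was 0.0133 with position, although heterozygotes and wild type shared no position. With arrays left out, Prrx2 in homozygotes against heterozygotes ran from -0.12 to 0.004, and the heterozygous distance from the midpoint from -0.0701 to 0.18 for Alx1 and from -0.12 to 0.38 for Prrx1.

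Counts over all genes moved by more than 1.5 times. Homozygotes against wild type gave 305 genes, but 91 with normexp, 188 with no filter, 20 with position, 19 with title number, 532 with array weights and 112 to 443 with arrays left out. The single homozygous arrays that moved it so far were replicate 1 (149), 2 (136) and 3 (140), and the wild-type ones replicate 1 (112) and 4 (115). Heterozygotes against wild type gave 2, but 5 with no filter or slide as a block, 1 with normexp, the filter on all 12 arrays, only those genotypes or the other variance model, 0 with title number and 0 to 2 with arrays left out. Homozygotes against heterozygotes gave 3, but 8 with array weights, 0 with normexp, position, title number or only those genotypes, and 1 to 6 with arrays left out. The cause of these shifts was not tested.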

Other observations

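In the comparisons with heterozygotes, where no list gene passed, the genes with the smallest p in each list had these log2 fold changes in limma. For heterozygotes against wild type, the arch and facial factors Osr2 and Foxl2 had 0.88 ± 0.23 (adjusted p = 0.237) and 1.25 ± 0.44 (adjusted p = 0.254). The paired-type genes Uncx and Pitx3 had 0.91 ± 0.45 (adjusted p = 0.348) and 0.49 ± 0.31 (adjusted p = 0.439). The limb gene Sall4 had 0.42 ± 0.12 (adjusted p = 0.237), and the mesenchyme genes Vcan and Zeb2 had -0.37 ± 0.10 (adjusted p = 0.237) and -0.36 ± 0.11 (adjusted p = 0.238). For homozygotes against heterozygotes, Tbx15 had 0.67 ± 0.18 (adjusted p = 0.477), Gsc 0.40 ± 0.17 (adjusted p = 0.813) and Pax6 -0.31 ± 0.16 (adjusted p = 0.871). Tbx15 was well above background on 4 homozygous arrays but on 1 heterozygous array, so its difference is against values near the background. Has2 had -0.54 ± 0.13 (adjusted p = 0.398) and Cdh11 -0.37 ± 0.10 (adjusted p = 0.445) in the same comparison.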
